A study of Mus musculus with 899 samples.

Results

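Circulating levels of mmu-miR-143-3p, mmu-miR-145a-5p and mmu-miR-145a-3p, the mature miRNA of a smooth muscle miRNA cluster, were followed in plasma of C3H (C3Hf/Sed/Kam) and C57Bl/6 mice. Members were chosen by name. All 3 were found among the 1915 miRNA listed, and 2 of them had enough reads to be tested. The study compared mice that received a single whole thorax lung irradiation (WTLI) with sham irradiated mice of the same strain, to find plasma miRNA that move with late lung injury. Plasma was collected before treatment (PT), on day 2 or day 5 (D2, D5) and each month from month 1 (M1), up to M4 in C3H and M6 in C57Bl/6, so that 196 mice gave 899 samples in 32 groups of 8 to 68. In C3H there were 64 irradiated and 32 sham mice, and in C57Bl/6 there were 68 irradiated mice, 4 of which had no PT sample here, and 32 sham mice. Mice of both sexes carried no transgene or targeted allele per the labels, and dose and age are not printed here. Irradiated groups became smaller, from 58 at M1 to 17 at M4 in C3H and from 68 at M1 to 8 at M6 in C57Bl/6. Part of this drop was by design, since mice with title code G3 or G4 (described below) were not sampled after M1. Sham groups of both strains went from 32 mice at M1 to 16 at M2 in the same way. Other irradiated mice were lost, so late irradiated groups hold the mice still sampled. The same mouse gave several samples, plasma above a hemolysis limit had been left out by the study, and live mice were bled from behind the eye while terminal samples came from the heart.

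The miR-143 and miR-145 hairpins are made from a shared primary transcript, and their mature forms are abundant in vascular, visceral and airway smooth muscle, in pericytes and in fibroblasts. In smooth muscle they favour the contractile, differentiated state, and known targets include the transcription factors Klf4 and Elk1. miR-143-3p and miR-145a-5p are the arms that load into Argonaute in most tissues, while miR-143-5p and miR-145a-3p are the lesser arms of the same hairpins. In plasma such miRNA come from many tissues, so a level in plasma does not say which vessel, airway or organ released it. Release by fewer cells of a type and less release per cell cannot be told apart in these samples.

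Sequences are shown for the miRNA of other loci whose levels rose and fell most closely with the 2 abundant members from sample to sample, since a shared sequence would leave reads that cannot be told apart. Likeness was Pearson's r of log2 CPM over 899 samples after the mean of each group was removed, against 163 miRNA with a mean log2 CPM of at least 5. Capitals mark the seed, bases 2 to 8 from the 5′ end, and the sequences are from RefSeq (GRCm38.p6).
mmu-miR-152-3p: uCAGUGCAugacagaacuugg
mmu-miR-125b-5p: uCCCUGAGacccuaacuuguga
mmu-miR-199b-3p: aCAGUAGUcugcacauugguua
mmu-miR-199a-3p: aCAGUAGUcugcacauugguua
mmu-miR-30c-5p: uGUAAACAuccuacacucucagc
mmu-miR-365-3p: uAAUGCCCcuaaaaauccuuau
miR-199a-3p and miR-199b-3p have the same 22 bases, so their reads cannot be told apart and their values are uncertain. Among the sequences printed, the other 4 each have a seed of their own. miR-143-5p and miR-30b-5p also belonged to the most alike miRNA and are named only. The reference used held no sequence of these miRNA or of the members, so sequences were not compared with those of the members.

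For mmu-miR-143-3p, the closest miRNA was the other arm of its own hairpin, miR-143-5p, with r = 0.696 over 899 samples. mmu-miR-145a-5p came next at 0.607, ahead of miR-152-3p at 0.402, miR-125b-5p at 0.400, miR-199b-3p at 0.392 and miR-199a-3p at 0.386. For mmu-miR-145a-5p, mmu-miR-143-3p was the closest at 0.607, and miR-30b-5p (0.573), miR-30c-5p (0.554) and miR-365-3p (0.504) stood before miR-143-5p (0.446) and miR-125b-5p (0.384). Each of the 2 members therefore ranked first or second for the other among 163 miRNA. These values are a description, since all miRNA of a sample share its library, depth and scaling factor.

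The miRNA of the same cluster shared the direction of change in sham mice at M1, and miRNA of other loci went either way. At M1, log2 changes from PT in C3H and C57Bl/6 sham mice were −0.70 and −1.05 for mmu-miR-143-3p, −0.48 and −0.90 for miR-143-5p and −1.29 and −0.51 for mmu-miR-145a-5p. They were 0.58 and 0.81 for miR-125b-5p, a miRNA of many stromal cells, and 1.23 and 1.07 for miR-199a-3p, a fibroblast and muscle miRNA. For miR-30c-5p they were −0.52 and 0.14, and for endothelial miR-126a-3p −0.65 and −0.33. Before irradiation, log2 differences of C57Bl/6 over C3H were −0.61 for miR-30b-5p, −0.62 for miR-30c-5p and −0.36 for miR-365-3p, with the sign of mmu-miR-145a-5p (−0.55), whereas mmu-miR-143-3p (0.51) and miR-143-5p (0.21) had the opposite sign. At M4 in sham C57Bl/6 mice miR-30b-5p and miR-30c-5p were 0.91 and 1.17 above PT, and mmu-miR-145a-5p was 0.01 above it, which was not called. The change of mmu-miR-143-3p there was −1.09. At M3 in these mice it was −0.78 for mmu-miR-143-3p and 0.26, not called, for mmu-miR-145a-5p. These M3 and M4 estimates set mice of title code G1 against PT samples of G1 and G3. The mean of the mice's own log2 changes of mmu-miR-145a-5p was −0.17 at M3 and −0.37 at M4. A difference in direction within the cluster was thus not shown at these times.

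Depth ranged from 206490 to 11814515 reads per sample (median 1475030), and 23 samples had fewer than 500000. Levels below are CPM, that is read counts relative to the TMM-scaled library size, and log2 CPM values carry a prior count of 2. No 2 samples had identical counts. The most abundant miRNA held a median of 46.2% of the reads of a sample. miR-16-5p, a miRNA of red and white blood cells, had a mean log2 CPM of 18.79 and the liver miRNA miR-122-5p 11.69, so miRNA commonly carried in plasma were present. The sample titles hold a code, G1 or G3 in C57Bl/6 and G2 or G4 in C3H, whose meaning the labels do not give. Mice of all 4 codes were sampled up to M1, and later samples came from G1 and G2 alone.

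mmu-miR-143-3p was among the most abundant plasma miRNA, ranking 14 by mean share of reads, with a median of 1.03% of the reads of a sample (0.181% to 4.75%) or 15139 reads (2122 to 182181). mmu-miR-145a-5p ranked 76, with a median share of 0.0468% (0.00236% to 0.608%) and a median of 708 reads (10 to 9476). Both were read in all 899 samples. The lesser arm miR-143-5p ranked 129 with a median of 106 reads (5 to 1590). mmu-miR-145a-3p was rare, with 764 reads in all, at most 21 in 1 sample, and at least 1 read in 219 of 899 samples (24.4%). The related miR-145b had 0 reads, which at the median depth allows up to 2.04 CPM (3 counts), where this limit covers counting error only. Mature miRNA differ little in length, so no length scaling was applied, but reads of different miRNA are not captured equally and their ratios are ratios of reads.

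3 sham C57Bl/6 libraries at D5, all from female mice with code G3, stood apart in the ratio of mmu-miR-143-3p to mmu-miR-145a-5p reads. They held 10 to 36 reads of mmu-miR-145a-5p, against 251 to 2055 in the 13 other libraries of the group, at total counts of 419427 to 613538. Their log2 ratio was 6.75 to 8.13, and it was 1.63 to 6.63 in the other 896 samples. Their mmu-miR-143-3p level, 13.25 to 13.71 log2 CPM, lay within the range of the other 13. miR-30c-5p and miR-365-3p were below all 13 others in 3 of 3 of these libraries, and miR-30b-5p and miR-451a in 2 of 3. The same mice had ratios of 5.37 to 5.84 at PT and 4.41 to 4.99 at M1. The cause was not tested. For mmu-miR-145a-5p and the ratio, D5 results in C57Bl/6 are given with and without these libraries. D5 values of mmu-miR-143-3p and shares of all miRNA called at D5 include them.

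Before irradiation, mmu-miR-143-3p was higher and mmu-miR-145a-5p lower in C57Bl/6 than in C3H plasma. For mmu-miR-143-3p, the 96 C3H samples had a lowest, median and highest level of 3660, 15051 and 33981 CPM, and the 96 C57Bl/6 samples had 8655, 20204 and 58154 CPM. The ranges overlapped over most of their length, with the C57Bl/6 samples shifted upwards. The difference was 0.51 on the log2 scale (SE 0.091), or 1.42-fold, with an adjusted p of 2.10e-07 in edgeR's quasi-likelihood test. mmu-miR-145a-5p had 228, 829 and 4363 CPM in C3H and 162, 606 and 1320 CPM in C57Bl/6. Here the C3H samples reached far above the highest C57Bl/6 sample. The log2 difference was −0.55 (SE 0.105), 1.46-fold lower in C57Bl/6, with an adjusted p of 1.23e-06. Of all 483 miRNA tested, 50.7% were called, 21.9% as higher and 28.8% as lower in C57Bl/6, so a strain difference as such was common. With total counts in place of TMM, 132 were called higher and 104 lower, against 106 and 139 with TMM, and both members were called in the directions given.

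The strain difference of mmu-miR-143-3p depended on the title code, and that of mmu-miR-145a-5p did not lose its call. Among codes G1 and G2 mmu-miR-143-3p differed by 0.98 (adjusted p = 1.16e-12), whereas among G3 and G4 it differed by 0.13 (adjusted p = 0.432) and was no longer called. The mean log2 CPM at PT was 13.51 in G2 and 14.03 in G4, which are both C3H, and 14.35 in G1 and 14.23 in G3, which are both C57Bl/6. The C3H mice with code G4 thus lay nearer to C57Bl/6 than those with code G2. Each code occurs in a single strain, so a strain difference cannot be told apart from a difference between codes. For mmu-miR-145a-5p the difference was −0.46 among G1 and G2 (adjusted p = 0.00597) and −0.63 among G3 and G4 (adjusted p = 7.41e-05).

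Because the members moved in opposite directions, the ratio of their reads separated the strains more than either alone. The log2 ratio of mmu-miR-143-3p to mmu-miR-145a-5p reads at PT was 5.09 ± 0.49 (SD, n = 96) in C57Bl/6 and 4.15 ± 0.77 (SD, n = 96) in C3H. It was higher in C57Bl/6 by 0.94 (SE 0.093), or 1.92-fold. A two-sided permutation test gave p = 2e-05, the smallest that 100000 resamples allow. The ratio needs no scaling factor, and it was chosen as a measure after the data were seen. By pairs of codes the difference was 1.16 between G1 and G2 (n = 48 each, permutation p = 2e-05) and 0.73 between G3 and G4 (n = 48 each, permutation p = 2e-05). It thus held in both pairs, which the labels do not define as pairs. The ratio of both arms of the miR-143 hairpin, miR-143-3p to miR-143-5p, differed by 0.25 in the same direction (permutation p = 0.0012). miR-143-5p itself was 0.21 higher in C57Bl/6 (SE 0.105, adjusted p = 0.087), which was not called, but it was called as higher with DESeq2 size factors (0.26) and with total counts (0.29).

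**Figure D1:**
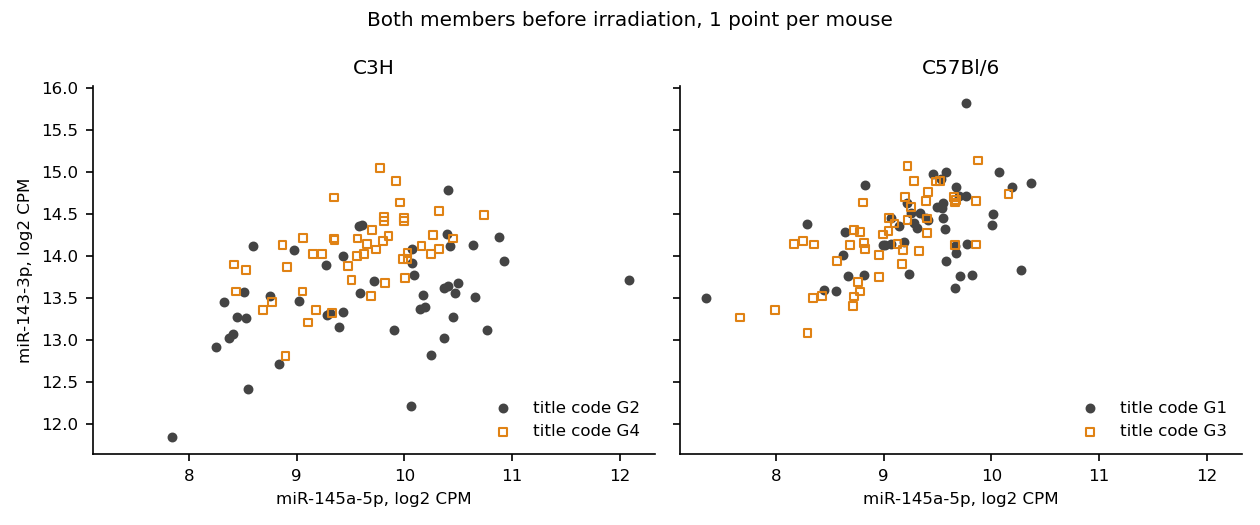
Each point is 1 mouse before irradiation, with mmu-miR-145a-5p on the x axis and mmu-miR-143-3p on the y axis (log2 CPM), C3H and C57Bl/6 in separate panels and title codes by colour and symbol. Both members rose together among mice of each strain, with r = 0.35 in C3H and 0.59 in C57Bl/6, and in C3H the G4 mice lay higher in mmu-miR-143-3p than the G2 mice.

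Among mice of a strain at PT, the 2 members rose and fell together. Pearson's r between mmu-miR-143-3p and mmu-miR-145a-5p was 0.59 in C57Bl/6 (n = 96, Spearman's rho 0.56, permutation adjusted p = 9e-05) and 0.35 in C3H (n = 96, rho 0.32, adjusted p = 0.0021), adjusted over 18 correlations. Without the 2 mice farthest from the median on the x axis, r was 0.54 and 0.32. Within title codes r was 0.44 in G1, 0.72 in G3, 0.39 in G2 and 0.52 in G4, so the relation was positive in each. In C3H r was 0.70 in females and 0.17 in males, a difference that was not tested. Scaling by total counts gave a higher r of 0.64 in C3H and 0.70 in C57Bl/6.

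The members differed in how they related to miR-451a, a miRNA of red blood cells. In C3H mice mmu-miR-143-3p fell as miR-451a rose (r = −0.50, rho −0.47, adjusted p = 9e-05), and r was −0.31 within G2 and −0.31 within G4. In C57Bl/6 mice r was −0.06 (adjusted p = 0.732). With total counts in place of TMM, r in C3H was −0.27, with 0.04 in G2 and −0.04 in G4, so the relation within codes was lost under that scaling. mmu-miR-145a-5p rose with miR-451a in both strains, with r = 0.31 in C3H (adjusted p = 0.00573) and 0.33 in C57Bl/6 (adjusted p = 0.00331), and with 0.37, 0.33, 0.28 and 0.34 in G2, G4, G1 and G3. Leaving out the 2 farthest mice gave 0.34 and 0.35. Against log2 total counts r was between −0.16 and 0.04 for both members in the TMM-scaled values of a strain, and no adjusted p passed the threshold. Within codes it was −0.33 in G2, 0.22 in G4, −0.05 in G1 and −0.33 in G3 for mmu-miR-145a-5p, and between −0.18 and −0.03 for mmu-miR-143-3p.

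In sham irradiated mice, both members changed over time in each strain, without any irradiation, and every called change was a fall from the PT level. The F test over all time points gave an adjusted p of 2.24e-07 for mmu-miR-143-3p in C3H and 2.19e-19 in C57Bl/6. For mmu-miR-145a-5p it was 4.99e-15 in C3H and 5.82e-06 in C57Bl/6. Changes over time were common in sham mice, with 46% of the 483 miRNA called in C3H and 62.9% in C57Bl/6. Time since sham treatment, age, earlier bleeds, any difference in sequencing run and the bleeding site of terminal samples cannot be told apart here. Samples of the same mouse are not independent.

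mmu-miR-143-3p fell at every sampled time in C57Bl/6 sham mice, most at M5. The 32 sham PT samples had a lowest, median and highest level of 12235, 21864 and 33004 CPM, and the 16 samples at M5 had 3300, 6740 and 13101 CPM. Only the top of the M5 range reached the lowest PT samples. The change at M5 was −1.59 on the log2 scale (SE 0.20), 3.01-fold lower, with an adjusted p of 9.65e-13. At M5 the level was lower than the mouse's own PT level in 16 of 16 mice, as it was at M2 and at M6. The changes at the other times were −0.94 at D2, −0.78 at D5, −1.05 at M1, −1.12 at M2, −0.78 at M3, −1.09 at M4 and −1.32 at M6, and all 8 were called in edgeR's test. Among G3 and G4 mice alone D2 (−0.61, adjusted p = 0.0950) and D5 (−0.52, adjusted p = 0.127) were not called, and among G1 and G2 mice all 8 were, from −1.01 at M3 to −1.82 at M5. By median the order of the sham levels was PT, M3 (12032 CPM), D2 (11785), D5 (11084), M1 (9809), M2 (8935), M6 (8216), M4 (7863) and M5. All of these ranges overlapped with their neighbours.

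In C3H sham mice mmu-miR-143-3p fell as well, and the size of the fall at single times differed with the title code. The sham PT samples had 4749, 15865 and 30542 CPM and the 16 M4 samples 3391, 6273 and 17666 CPM. The M4 samples filled the lower part of the PT range. The log2 change was −0.95 at M4 (SE 0.19, adjusted p = 5.69e-06), and 14 of 16 mice were lower than at their own PT. That estimate sets G2 mice against PT samples of both G2 and G4, with sham PT means of 13.37 and 14.17 log2 CPM. The mean of the mice's own changes at M4 was smaller, at −0.62. Called changes were also −0.53 at D5 (adjusted p = 0.0290), −0.70 at M1 (adjusted p = 2.88e-05) and −0.95 at M3 (adjusted p = 1.11e-05), while −0.33 at D2 and −0.40 at M2 were not called (adjusted p = 0.186 and 0.107). Among G1 and G2 mice alone, the only codes sampled after M1, the change was 0.56 at D2, −0.18 at D5, −0.41 at M1, 0.04 at M2, −0.50 at M3 and −0.43 at M4, and of these M3 alone passed the test (adjusted p = 0.0464). Among G3 and G4 mice it was −1.08 at D2 (adjusted p = 0.00469), −0.71 at D5 (adjusted p = 0.168) and −0.92 at M1 (adjusted p = 0.000779). The F test over time was called in both, with adjusted p-values of 0.000305 and 0.000215. The D5 call was also lost with total counts (−0.34, adjusted p = 0.264), quantile normalization (−0.38, adjusted p = 0.147) and no filter (−0.47, adjusted p = 0.0901), and M2 was called with limma-voom (−0.67) and quantile normalization (−0.70). With the mouse as a fixed replicate block, D2 (−0.51, adjusted p = 0.0138) and M2 (−0.57, adjusted p = 0.00694) were called and D5 was not (adjusted p = 0.0507), while as a random one M2 was called (−0.66, adjusted p = 0.00184). In order of the median, C3H sham levels were PT, D2 (10217 CPM), D5 (9340), M1 (7662), M2 (7364), M3 (7030) and M4, again with overlapping neighbours.

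The fall of mmu-miR-145a-5p was largest in C3H. Sham PT samples had 304, 993 and 4363 CPM, and M4 samples had 178, 283 and 1125 CPM. The median at M4 lay below the lowest PT sample, although the ranges overlapped. The log2 change was −1.47 (SE 0.22), 2.76-fold lower, with an adjusted p of 2.64e-09, and 14 of 16 mice were below their own PT level. Changes at the other times were −0.63 at D2, −0.97 at D5, −1.29 at M1, −0.63 at M2 and −1.31 at M3, all called. By median the order was PT, D2 (572 CPM), D5 (436), M1 (381), M2 (359), M3 (332) and M4. Among G1 and G2 mice alone all but D2 (−0.42, adjusted p = 0.287) were called, with −1.60 at M4, and among G3 and G4 mice D2 and D5 were not called (adjusted p = 0.108 and 0.507). With total counts D2 (−0.26, adjusted p = 0.464) and M2 (−0.58, adjusted p = 0.109) were not called, nor was D2 with no filter (adjusted p = 0.0864).

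In C57Bl/6 sham mice mmu-miR-145a-5p fell at some times and was near its PT level at M3 and M4. At M3 the 16 samples had 283, 700 and 1674 CPM, against 327, 628 and 1320 CPM at PT, and the log2 change was 0.26 (SE 0.21, adjusted p = 0.355). 8 of 16 mice were lower than at their own PT. At M4 the change was 0.01 (adjusted p = 0.977), and its sign differed between settings without a call in any. Among G1 and G2 mice alone the change was −0.08 at M3 (adjusted p = 0.821) and −0.36 at M4 (adjusted p = 0.263). At M5 the samples had 192, 331 and 709 CPM, with 16 of 16 mice below their own PT level and a change of −0.90 (SE 0.22, adjusted p = 0.000472). M1 (−0.51, adjusted p = 0.0165) and M6 (−0.64, adjusted p = 0.0126) were called as lower as well, whereas D2 (−0.49, adjusted p = 0.0898), D5 (−0.19, adjusted p = 0.549) and M2 (−0.48, adjusted p = 0.106) were not. D2 and M2 were called with the mouse as a fixed replicate block, at −0.68 (adjusted p = 0.00894) and −0.66 (adjusted p = 0.0122), and also as a random one (adjusted p = 0.0266 and 0.0223). Without the 3 libraries at D5 the change was −0.01 at D5 (adjusted p = 0.980) and D2 was called (−0.55, adjusted p = 0.0455). With total counts M1 (−0.39, adjusted p = 0.145) and M6 (−0.38, adjusted p = 0.244) were not called, and D5 was called with quantile normalization (−0.57, adjusted p = 0.0282). Among G3 and G4 mice alone, which end at M1, the F test over time gave an adjusted p of 0.896. By median the order was M3, PT, D5 (593 CPM), M4 (587), M1 (490), D2 (472), M6 (416), M2 (365) and M5, with overlapping neighbours.

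**Figure D2:**
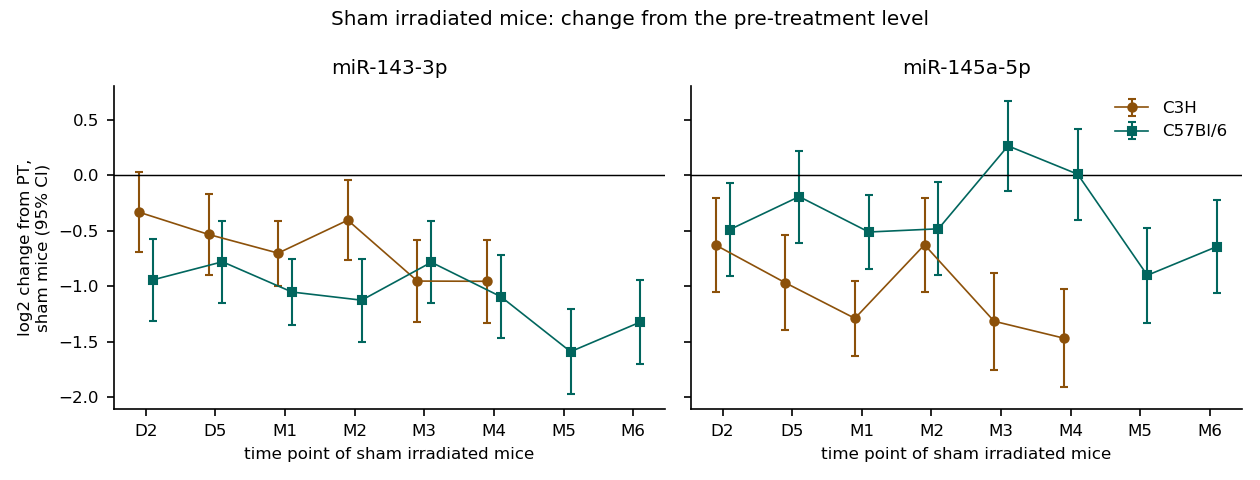
Log2 change from the PT level in sham irradiated mice (y axis, edgeR estimates with 95% confidence intervals) by time point (x axis), for mmu-miR-143-3p and mmu-miR-145a-5p in separate panels and both strains in each. mmu-miR-143-3p lay below 0 at all times, down to −1.59 in C57Bl/6 at M5, and mmu-miR-145a-5p was down to −1.47 at M4 in C3H while it was near 0 at M3 and M4 in C57Bl/6.

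Red blood cell miRNA moved in the same direction in these sham mice. All 6 miRNA of that list were called in both strains, 6 of 6 as lower in C3H and 5 of 6 as lower in C57Bl/6, with list medians of −0.54 and −0.64. Of all 483 miRNA, 46% and 62.9% were called, 117 and 147 of them as lower. Their summed level ranged from 281900 to 1425000 CPM at PT and from 201700 to 817600 CPM at M4 in C3H sham mice, a sum that TMM scaling can carry past the total of the library. Most of this sum is miR-16-5p, which white blood cells hold as well. Its mean log2 CPM was 18.79, against 14.67 for miR-486a-5p, the next of the list. Their part in the fall of the members was not tested.

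The time course of mmu-miR-145a-5p in sham mice differed between the strains. The F test of the difference over the 6 shared times gave an adjusted p of 9.99e-08, in a test added after the data were seen, and 43.5% of all 483 miRNA were called in it. The change was higher in C57Bl/6 than in C3H by 1.58 at M3 (SE 0.30), 1.48 at M4 (SE 0.30), 0.78 at D5 (SE 0.30) and 0.78 at M1 (SE 0.24), and by 0.14 at both D2 and M2. From M2 on these estimates set G1 and G2 mice against PT samples of all 4 codes. The mean of the mice's own log2 changes was −0.17 in C57Bl/6 and −1.31 in C3H at M3, and −0.37 and −1.51 at M4. Among G3 and G4 mice, which end at M1, the adjusted p was 0.0877, and without the 3 libraries at D5 it was 8.67e-07. For mmu-miR-143-3p the difference was near the threshold (adjusted p = 0.0414) and was not called with the mouse as a replicate block (adjusted p = 0.176 as a random and 0.166 as a fixed effect) or with limma-voom (adjusted p = 0.192), or among G3 and G4 mice (adjusted p = 0.628). It was 0.0469 without the 3 libraries at D5. Its largest differences were −0.72 at M2 (SE 0.26) and −0.61 at D2 (SE 0.26). The mean own change of mmu-miR-143-3p was −1.32 in C57Bl/6 and −0.27 in C3H at M2, and −1.37 and −0.62 at M4.

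The ratio of the members was lower after PT in C57Bl/6 and not in C3H sham mice. In C57Bl/6 sham mice the mean log2 ratio was 5.10 ± 0.44 at PT (SD, n = 32) and 3.95 ± 0.36 at M4 (SD, n = 16). 15 of 16 mice were below their own PT ratio at M3, at M4 and at M5. In C3H sham mice the mean was 3.99 ± 0.93 at PT (SD, n = 32) and 4.39 ± 0.46 at M4 (SD, n = 16), and 13 of 16 mice were above their own PT ratio at M4. Of irradiated mice, 27 of 27 in C57Bl/6 were below their own PT ratio at M3, and in C3H 20 of 27 were above it at M3 and 10 of 17 at M4. Irradiated C57Bl/6 mice had mean log2 ratios of 5.08 at PT, 4.07 at M3, 3.98 at M4, 4.21 at M5 and 4.69 at M6. At M4 the C57Bl/6 sham mean thus lay below that of C3H, opposite to PT. No test was made of these changes of the ratio over time, or of the strains after PT.

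**Figure D3:**
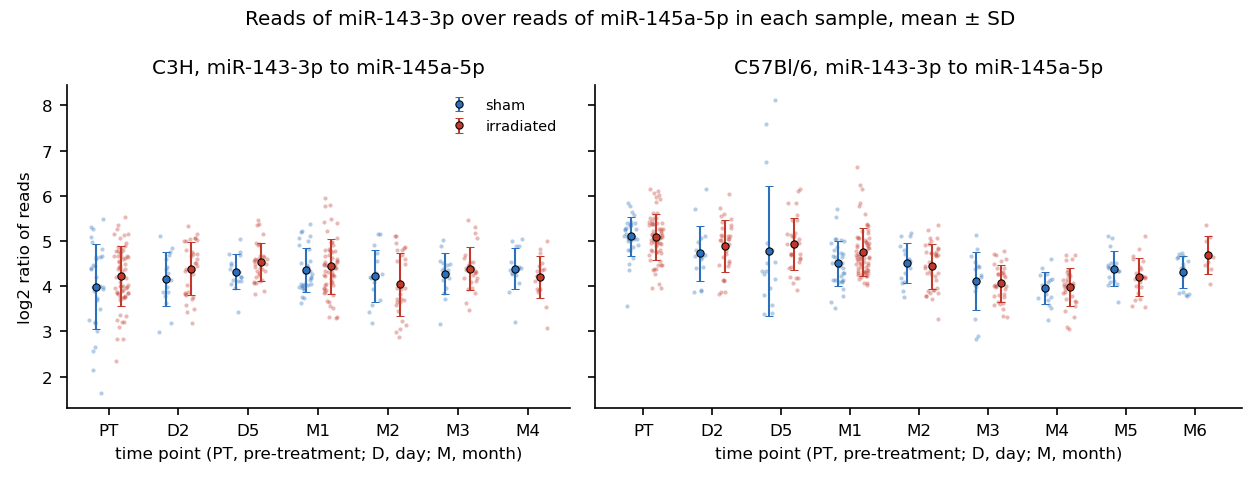
Log2 ratio of mmu-miR-143-3p to mmu-miR-145a-5p reads in each sample (y axis) by time point (x axis), with group means and SD, in irradiated and sham mice of each strain. In C57Bl/6 the sham mean went from 5.10 at PT to 3.95 at M4, and 3 sham samples at D5 lay between 6.75 and 8.13, above all other samples.

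WTLI did not give a called change in either abundant member at any time in either strain. Of 28 tests (12 in C3H and 16 in C57Bl/6), 0 passed an adjusted p of 0.05 in edgeR's quasi-likelihood test, and 1 had an unadjusted p under 0.05. That was mmu-miR-143-3p at M4 in C57Bl/6, with 4570, 7464 and 16550 CPM in 29 irradiated mice and 4913, 7863 and 26794 CPM in 16 sham mice. These ranges overlapped almost fully, and the log2 change was −0.37 (SE 0.18, p = 0.0418, adjusted p = 0.246). DESeq2, limma-voom and all other settings run also called 0 of the member tests, with 0 to 3 unadjusted p under 0.05.

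Few miRNA were called in the same contrasts. In C3H 4.97% of 483 miRNA were called at D2, 3.11% at D5, 3.31% at M1, 0.621% at M2, 2.07% at M3 and 0.414% at M4. In C57Bl/6 it was 6.63% at D2, 14.1% at D5, 3.73% at M1, 3.31% at M2, 1.66% at M3, 4.76% at M4, 3.52% at M5 and 0.414% at M6. At PT, before irradiation, 0% were called in either strain between mice later irradiated and mice later sham irradiated. Tested over all times together, the share of miRNA called was 15.5% for C3H mice against 25.3% for C57Bl/6 mice, and neither member was among them. Adjusted p-values of those F tests were 0.714 for mmu-miR-143-3p and 0.714 for mmu-miR-145a-5p in C3H, and 0.444 and 0.276 in C57Bl/6.

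The estimates after WTLI were small in this fit. For mmu-miR-143-3p they ran from −0.33 at M2 to 0.09 at D5 in C3H and from −0.37 at M4 to 0.24 at D5 in C57Bl/6. For mmu-miR-145a-5p they ran from −0.35 at M2 to −0.11 at M1 in C3H and from −0.43 at M6 to 0.14 at M5 in C57Bl/6. Over all 28 tests the 95% intervals lay between −1.02 and 0.60 on the log2 scale. With the mouse as a fixed replicate block the highest estimates were larger, at 0.51 for mmu-miR-143-3p at D5 (SE 0.22, p = 0.0207, adjusted p = 0.156) and 0.49 for mmu-miR-145a-5p at M5 (SE 0.28, adjusted p = 0.513), both in C57Bl/6. 24 of the 28 estimates were below 0, a count that ranged from 17 to 24 of 28 over other settings with all title codes and the 28 tests, except with the mouse as a fixed replicate block, where 9 of 28 were below 0. The irradiated mice were already lower at PT, by 0.01 to 0.34, with −0.34 for mmu-miR-145a-5p in C3H (p = 0.0217, adjusted p = 0.695). Times share mice, and the 2 members are correlated, so these 28 estimates are not independent.

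**Figure D4:**
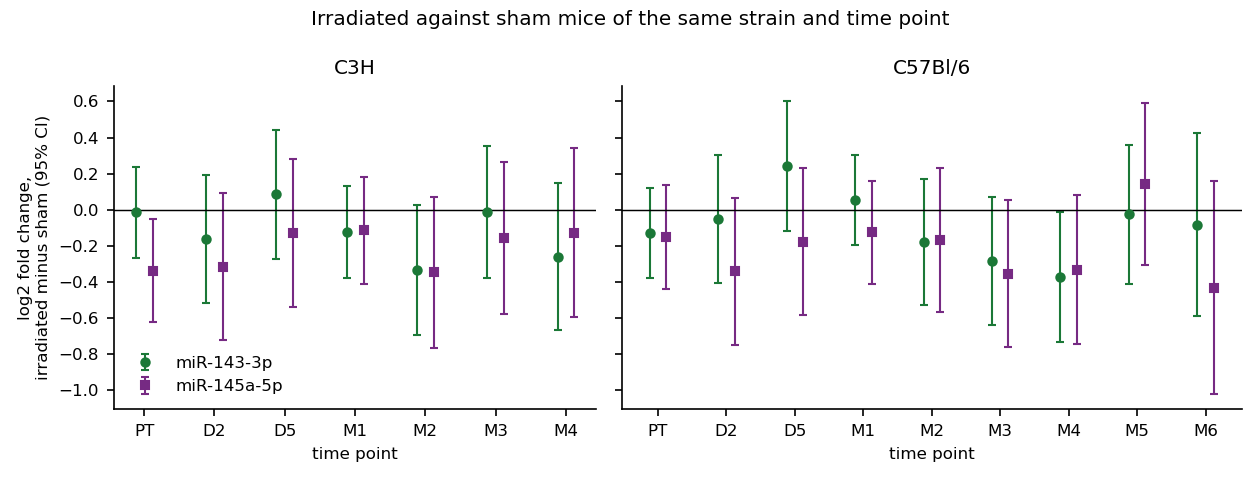
Log2 fold change of irradiated minus sham mice (y axis, edgeR estimates with 95% confidence intervals) by time point (x axis) for mmu-miR-143-3p and mmu-miR-145a-5p, C3H and C57Bl/6 in separate panels. All estimates lie between −0.43 and 0.24, and 0 of 28 tests after irradiation were called.

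Levels in irradiated mice followed those of sham mice over time. mmu-miR-143-3p in irradiated C3H mice had medians of 13885 CPM at PT, 10835 at D5, 9863 at D2, 7902 at M2, 7709 at M3, 7502 at M1 and 7024 at M4, in that order. In irradiated C57Bl/6 mice the order was PT (18175 CPM), D5 (14476), M3 (10708), D2 (10237), M1 (10083), M6 (9362), M2 (8655), M4 (7464) and M5 (7116). Thus M4 in C3H and M5 in C57Bl/6 were lowest in both arms. mmu-miR-145a-5p in irradiated C3H mice went from 774 CPM at PT to 340 at M4 and 338 at M3, and in C57Bl/6 mice from 596 at PT through 622 at M3 to 338 at M5 and 279 at M6. Ranges of neighbouring times overlapped throughout. Of irradiated mice, 16 of 17 in C3H at M4 and 17 of 18 in C57Bl/6 at M5 had less mmu-miR-143-3p than at their own PT.

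**Figure D5:**
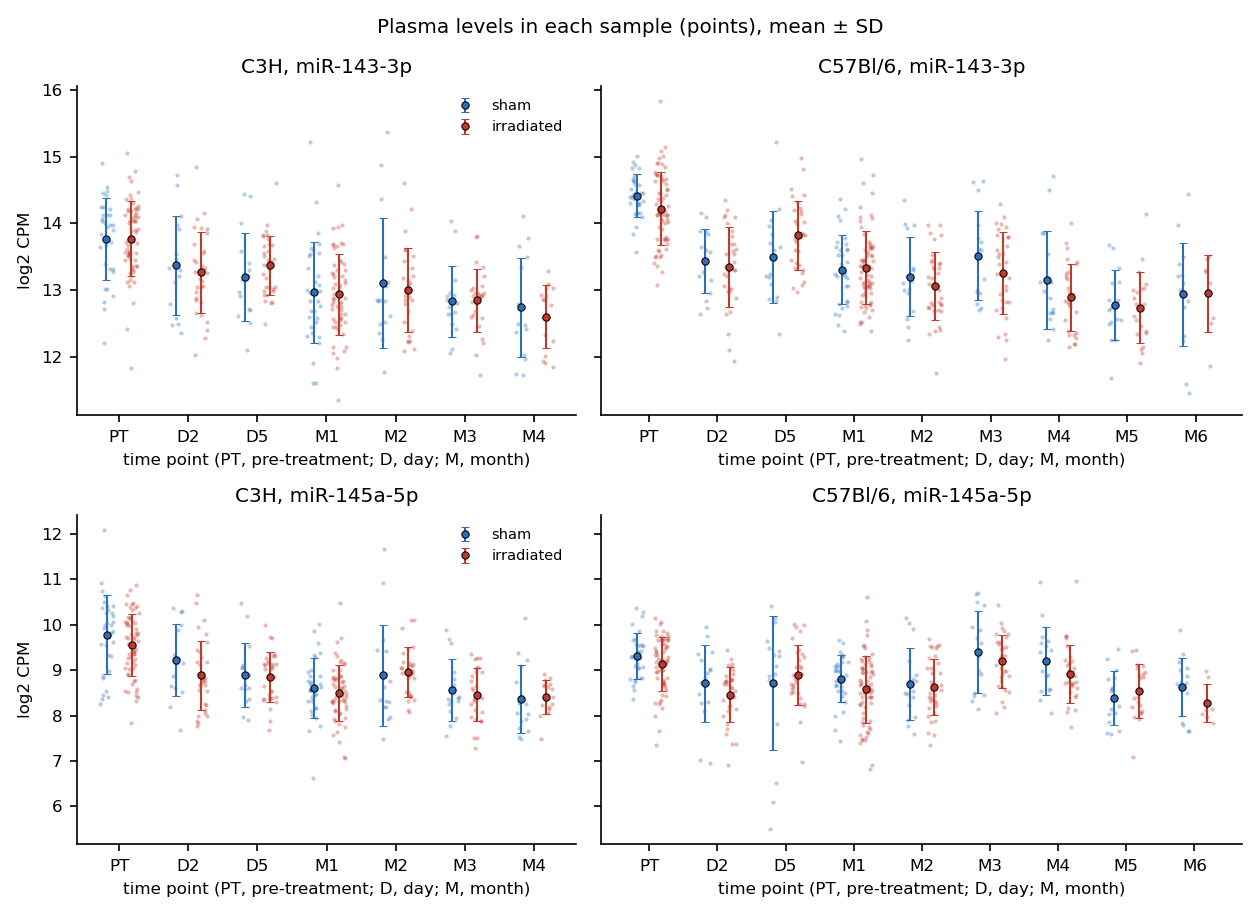
Level of mmu-miR-143-3p and mmu-miR-145a-5p in each sample (y axis, log2 CPM) by time point (x axis), with group means and SD, for irradiated and sham mice of each strain. The clouds of irradiated and sham mice overlap at all times. Group means after PT lie below the PT mean, except for mmu-miR-145a-5p at M3 in C57Bl/6. There they were 9.41 against 9.31 in sham and 9.20 against 9.14 in irradiated mice.

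The effect of WTLI did not differ detectably between the strains, with adjusted p-values of 0.974 for mmu-miR-143-3p and 0.995 for mmu-miR-145a-5p in the F test over 6 shared times, in which 4.35% of miRNA were called. For the ratio of the members, 16 comparisons of irradiated with sham mice gave a smallest adjusted p of 0.270, at M1 in C57Bl/6 (0.26 higher in irradiated mice, permutation p = 0.0169). At M6 in C57Bl/6 the ratio was 0.37 higher in 8 irradiated than in 16 sham mice (exact permutation p = 0.0353, adjusted p = 0.282).

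At D5 in C57Bl/6 the result for the ratio turned on the 3 libraries described above. With all 16 sham samples, the irradiated mice were 0.15 higher (permutation p = 0.632). Without the 3 libraries the difference was 0.77 (permutation p = 0.00014), but they were left out because of this same ratio, so this is no independent test. Title code G1, which holds none of them, gave a difference of 0.93 on the log2 scale, from a mean of 5.13 in 16 irradiated and 4.20 in 8 sham mice (exact permutation p = 0.000778, adjusted p = 0.0373 over 48 comparisons chosen after the data were seen). In G1 the irradiated mice ran from 4.08 to 6.15 and the sham mice from 3.58 to 4.95, with overlap. In G3 the difference was −0.63 with the 3 libraries in it (exact permutation p = 0.215). For mmu-miR-145a-5p in G1 the difference was −0.72 (exact permutation p = 0.0128, adjusted p = 0.308), and in the fit over all samples it was −0.18 with and −0.44 without the 3 libraries (adjusted p = 0.644 and 0.241).

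Females and males did not differ in a called way at PT. Log2 differences of females minus males were −0.14 (adjusted p = 0.499) and −0.02 (adjusted p = 0.947) for mmu-miR-143-3p in C3H and C57Bl/6. They were 0.19 (adjusted p = 0.414) and −0.36 (adjusted p = 0.0708) for mmu-miR-145a-5p. For the last of these, the 48 females had 7.35, 9.09 and 9.86 log2 CPM and the 48 males 7.99, 9.42 and 10.37, with broad overlap. In C3H mmu-miR-145a-5p was called with the mouse as a random replicate block (0.38, adjusted p = 0.0346). Of all miRNA, 14.5% differed by sex in C3H and 14.7% in C57Bl/6. The effect of WTLI by sex, over D2, D5 and M1, was called for 0.414% of miRNA in C3H and 5.38% in C57Bl/6. Neither member was called, with adjusted p-values of 1 for both in C3H and of 0.595 for mmu-miR-143-3p and 0.999 for mmu-miR-145a-5p in C57Bl/6.

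mmu-miR-145a-3p, the lesser arm, was read in 23 of 96 C3H samples at PT (24.0%, exact 95% interval 15.8% to 33.7%) and in 24 of 96 C57Bl/6 samples (25.0%, 16.7% to 34.9%). It made up 0.0568% of the pooled reads of both arms in C3H (exact 95% interval 0.0445% to 0.0714%) and 0.0951% in C57Bl/6 (0.0742% to 0.120%) at PT, where the intervals cover counting error only. After PT it was read in 87 of 306 C3H samples (28.4%, 23.4% to 33.8%) and 85 of 401 C57Bl/6 samples (21.2%, 17.3% to 25.5%), and several of these samples come from the same mice. Neither share was tested between strains. The r of its level against log2 total counts at PT was −0.38 in C3H and −0.33 in C57Bl/6 (permutation adjusted p = 0.00048 and 0.00366). Most samples had 0 reads, and with 0.5 added to each count their value falls as the total rises. This r therefore does not show a change of the level with depth. In a fit with no filter on low counts, mmu-miR-145a-3p was 2.65 lower on the log2 scale in sham C57Bl/6 mice at M5 than at PT (log2 change −2.65, adjusted p = 0.0130), and 2.26 higher in irradiated than sham mice at that time (SE 0.79, adjusted p = 0.0807). Both rest on counts of a few reads.

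Mir143 and Mir145a lie on the minus strand of mouse chromosome 18 in GRCm38 (mm10), the build named in the labels. The Mir143 hairpin spans chr18:61649196-61649258 (63 bases) and the Mir145a hairpin chr18:61647825-61647894 (70 bases), with 1301 bases between them. In RefSeq both hairpins lie within the long non-coding RNA gene Carmn (61645878 to 61665538). In GENCODE release M21 Carmn ends 366 bases before Mir143, and both hairpins are intergenic miRNA genes. Mir145b lies on the same chromosome, 7374304 bases away, and gave 0 reads.

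miRNA of other cells and tissues were counted beside the members, from lists of names. Each count is to be read against all 483 miRNA, of which 50.7% were called by strain, 46% over time in C3H and 62.9% in C57Bl/6 sham mice, and 15.5% and 25.3% after WTLI in C3H and C57Bl/6. In the list of 14 stromal miRNA, 9 differed by strain at PT (8 higher and 1 lower in C57Bl/6, list median 0.21, against −0.02 over all 483 miRNA). In sham mice 11 of 14 were called in C3H (9 higher and 2 lower, median 0.54) and 11 of 14 in C57Bl/6 (7 higher and 4 lower, median 0.18), against medians of −0.02 and 0.03 over all miRNA. So most stromal miRNA were above PT in C3H sham mice, while all 3 tested miRNA of the miR-143 and miR-145 cluster were below it in both strains (medians −0.62 and −0.94). miR-21a-5p, raised in fibrosis and many tumours, was 0.80 higher in C57Bl/6 at PT and rose by 0.92 in C3H sham mice at M1 (adjusted p = 1.36e-21), and it was 0.06 above PT in C57Bl/6 (adjusted p = 0.661). After WTLI, 4 of 14 stromal miRNA were called in C3H (0 higher and 4 lower) and 11 of 14 in C57Bl/6 (1 higher and 10 lower, median −0.33), against 15.5% and 25.3% of all miRNA. With total counts the C57Bl/6 count was 7 of 14 (0 higher and 7 lower).

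Endothelial and striated muscle miRNA, which vessels, heart and skeletal muscle release, were counted next. Both arms of endothelial miR-126a were higher in C57Bl/6 at PT, by 0.21 for miR-126a-3p and 0.39 for miR-126a-5p. In sham mice miR-126a-3p fell by 0.65 in C3H at M1 (log2 change −0.65, adjusted p = 3.90e-07) and by 0.33 in C57Bl/6 (−0.33, adjusted p = 0.0195). Of 2 endothelial miRNA, 1 was called in C3H sham mice and 2 in C57Bl/6, all as lower, and after WTLI 0 were called in C3H and 1 as higher in C57Bl/6. Of 7 striated muscle miRNA, 2 were called by strain (1 higher and 1 lower), 1 as lower in C3H sham mice, 4 in C57Bl/6 sham mice (1 higher and 3 lower), and 1 as higher after WTLI in each strain. The shares of all miRNA were 50.7% by strain, 46% and 62.9% in sham mice, and 15.5% and 25.3% after WTLI, so 1 of 7 is no more than the background. miR-206-3p of skeletal muscle was 0.55 lower in C57Bl/6 at PT (log2 difference −0.55, adjusted p = 0.0313), and miR-1a-3p of heart and skeletal muscle was 0.58 higher (adjusted p = 0.0225).

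Red blood cell miRNA were lower in C57Bl/6 than in C3H at PT in 6 of 6 cases (median −0.50), or 5 of 6 with DESeq2 size factors or total counts, including miR-16-5p (−0.20, adjusted p = 0.0245) and miR-486a-5p (−0.39, adjusted p = 5.78e-05). After WTLI 2 of 6 were called as higher in C3H and 1 of 6 in C57Bl/6. Of 7 leukocyte miRNA, 4 were called by strain (1 higher and 3 lower), 5 in C3H sham mice (2 higher and 3 lower), 7 in C57Bl/6 sham mice (5 higher and 2 lower), 5 as lower after WTLI in C3H and 5 after WTLI in C57Bl/6 (4 higher and 1 lower). The count by strain is near the 50.7% of all miRNA, and the others stand beside 46%, 62.9%, 15.5% and 25.3%. miR-150-5p of lymphocytes had a strain difference of 0.01 and miR-146a-5p, induced by NF-kB, of 0.03, and neither was called (adjusted p = 0.927 and 0.718). Of 4 liver miRNA, 1 was called by strain and 1 in C3H sham mice, both as lower, and 3 in C57Bl/6 sham mice (1 higher and 2 lower). miR-122-5p, the major hepatocyte miRNA, was 0.86 lower in C57Bl/6 (log2 difference −0.86, adjusted p = 5.97e-07), and miR-192-5p differed by −0.04 (adjusted p = 0.717). After WTLI 3 liver miRNA were called in C3H (2 higher and 1 lower) and 4 in C57Bl/6 (3 higher and 1 lower, median 0.92).

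The p53-responsive miR-34 family and a list of epithelial miRNA, the miR-200 family with miR-375-3p, mostly rose over time in sham mice of both strains. Of 5 miRNA of the miR-34 family, 2 were called as higher in C57Bl/6 at PT, 4 as higher in C3H sham mice (median 1.32) and 5 in C57Bl/6 sham mice (3 higher and 2 lower, median 1.03). miR-34a-5p rose by 1.36 at M1 in C3H and by 1.19 in C57Bl/6 sham mice (adjusted p = 6.25e-14 and 2.79e-10), and miR-34c-5p by 1.66 and 1.21. After WTLI 4 of 5 were called as higher in C3H and 3 of 5 in C57Bl/6. Of 6 epithelial miRNA, 3 were called by strain (2 higher and 1 lower), near the 50.7% of all miRNA. In sham mice 5 were called as higher in C3H (median 0.88) and 6 in C57Bl/6 (5 higher and 1 lower, median 0.65), beside 46% and 62.9% of all miRNA. miR-200a-3p rose by 1.94 at M4 in C3H and by 0.68 in C57Bl/6 sham mice, and miR-141-3p by 1.72 and 1.42. After WTLI 2 were called in C3H (1 higher and 1 lower) and 4 in C57Bl/6 (1 higher and 3 lower).

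Scaling moved some of these list counts. With total counts in place of TMM the median of all miRNA in sham C3H mice was 0.17, with 161 called as higher and 62 as lower against 105 and 117 with TMM. The same scaling put 14 of 14 stromal miRNA above PT in C3H, turned the C3H leukocyte median from −0.12 to 0.14 and the C57Bl/6 liver median from −0.05 to 0.05. All 3 tested cluster miRNA were called as lower over time in both strains under TMM, DESeq2 size factors and total counts.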

How the data were processed

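Small RNA of mouse plasma was sequenced, and the authors deposited raw counts of reads per mature miRNA and sample, made with QIAseq miRNA libraries and Illumina's BaseSpace Small RNA application (mm10 in the labels). The miRBase release and the use of molecular identifiers are not given in the sources used here.

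Strain, arm, time, sex, title code and mouse were taken from the labels. Counts were filtered with filterByExpr (483 miRNA with 99.99% of reads) and scaled by TMM (factors 0.372 to 1.59). edgeR 4.0.16 in R 4.3.3 fitted a quasi-likelihood model with 32 group means over all 899 samples (867 residual degrees of freedom), and means by group and sex for the tests of sex. P-values were adjusted by Benjamini-Hochberg over 483 miRNA, and a miRNA was called at an adjusted p under 0.05. A list member's direction over time is the sign of the median change over its times. Ratios (pseudocount 0.5) and correlations were tested by two-sided permutation (100000 resamples, all regroupings for exact tests) in scipy 1.17.1. Only some tests of irradiated against sham mice were checked on simulated data, in which all samples were independent. The tests over time in sham mice, of strain and of sex, the ratio tests and the correlations were not checked in this way.

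Numbers shared between samples mark the same mouse. Over 1962 pairs of samples of a mouse, deviations from group means correlated with r = 0.106 for mmu-miR-143-3p and 0.106 for mmu-miR-145a-5p (limma 3.58.1 consensus over all miRNA 0.0434), and the mouse was a replicate block in alternatives. Other alternatives were DESeq2 1.42.0, its size factors, limma-voom, quantile normalization, total counts, other filters, covariates and subsets of samples. The members and lists were chosen with earlier results of these data known, and the ratio, the strain test of the sham course, the lists under other scalings and the comparisons within title codes were added after the data were seen. Named miRNA were the members, their hairpin partners and family, the 5 other miRNA most like each abundant member, and the 2 most abundant of each list.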

Additional observations from a re-analysis of the deposited data

Results flagged for a closer look

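The change of mmu-miR-145a-5p over time in sham mice differed between C57Bl/6 and C3H (adjusted p = 9.99e-08, F test over 6 shared times in edgeR), with the largest differences at M3 (1.58) and M4 (1.48). The difference was also found with the mouse as a replicate block (adjusted p = 3.09e-06 as a random and 3.44e-06 as a fixed effect). The same test for mmu-miR-143-3p gave an adjusted p of 0.0414, which did not hold with the block. No group small enough for the check of single outlying samples, which was the 8 irradiated C57Bl/6 mice at M6, held one.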

How the results depend on the processing

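Over 119 results, 1379 alternative values were computed, of which 1318 kept direction and side of the threshold. Calls of a WTLI effect on a member were 0 in each of the 17 alternatives. Among G3 and G4 mice alone, the PT strain difference of mmu-miR-143-3p was 0.13 and no longer called, the sham course of mmu-miR-145a-5p in C57Bl/6 had an adjusted p of 0.896, and the strain difference of the sham course had 0.628 for mmu-miR-143-3p and 0.0877 for mmu-miR-145a-5p, where fewer samples and times were tested. With the mouse as a replicate block that of mmu-miR-143-3p was 0.176 (random) and 0.166 (fixed), and with limma-voom 0.192. The sex difference of mmu-miR-145a-5p in C3H at PT was called at 0.38 with limma-voom, 0.41 with quantile normalization, 0.54 in G3 and G4 and 0.38 with the random replicate block. Calls of all miRNA after WTLI, 254, were 756 with no filter, 134 with the fixed replicate block and 395 at a threshold of 0.1. With total counts, the PT correlation with depth in C57Bl/6 went from 0.04 to −0.25 for mmu-miR-143-3p and from −0.001 to −0.24 for mmu-miR-145a-5p. The cause was not tested. Of single sham times, 19 of 460 values lost and 24 gained a call. The median of all miRNA lay between −0.20 and 0.43 over the comparisons with total counts, against −0.11 to 0.10 with TMM. The block changed no call other than those given here and beside the results.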
